A study of Mus musculus with 53 samples.

Results

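The effect of losing the TGFβ receptor ALK5 from the intestinal epithelium was read in whole proximal colon taken 30 days post induction (d30). ALK5 is the protein of Tgfbr1. The 12 libraries described here, of 53 in the series, were chosen by genotype, tissue and day. They comprise 4 libraries of VilCreER+ Alk5fl/fl mice (A mice), 4 of A mice that were also given sulindac, and 4 of VilCreER+ mice with no floxed allele (WT mice). Sulindac, an inhibitor of the cyclooxygenases, was given at 0.4 g/L in drinking water over 14 days beginning 1 day after induction, and these mice then drank plain water until d30. The study gave it to wound and inflame the proximal colon. No WT mice of these libraries were given sulindac. Drug and genotype thus cannot be told apart in the sulindac arm, or in its part of the mean of both arms. All 3 groups received tamoxifen, and all are labelled as mixed C57BL/6J of backcross generation N6. The Villin promoter drives the CreER recombinase in epithelium alone, so immune cells, muscle, vessels and fibroblasts of the sampled colon keep an intact Tgfbr1. The methods give mice of both sexes, and Ddx3y, a gene of the Y chromosome, was above 10 CPM (counts per 1000000 reads on genes) in all 12 libraries. The ages of single mice, their litters and the sequencing batch of each library are not given in the sources used here. The study states that its replicates are separate animals.

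TGFβ ligands bind the receptor TGFBR2, which recruits and activates ALK5. ALK5 then phosphorylates SMAD2 and SMAD3, and these enter the nucleus with SMAD4 to switch target genes on or off. In the gut epithelium the pathway can restrain proliferation, and it is often lost in colorectal cancer. By BrdU staining, the study reports no effect of this loss on epithelial proliferation in the proximal colon at d30. A floxed allele made in embryonic stem cells of another strain keeps DNA of that strain beside it through backcrossing, so genes linked to the allele, or to any segment left from another strain, can differ between genotypes whatever the receptor does. The 22 genes that passed the test are therefore described by where they lie in the genome as well as by their roles.

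Between 14816807 and 21249146 reads per library were counted on genes. At these depths 3 reads, the floor used below, corresponded to between 0.141 and 0.202 CPM, which covers counting error only. The log2 CPM of any 2 libraries correlated with r between 0.9539 and 0.9855. Of the 18232 genes tested, 84.2% had a 95% interval of the log2 fold change that lay within -1 and 1, and among the 6244 genes with a mean log2 CPM of at least 5 this share was 96.8%. These intervals do not set what the adjusted test can call. Changes of this size, smaller or larger, could be missed. Pla2g2a, at a log2 fold change of 4.32, did not pass (adjusted p = 0.0946, edgeR). The median log2 fold change over all genes tested was 0.009.

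The A mice, with both arms weighted equally, differed from WT mice in 22 genes (0.121% of those tested, 16 or 0.0878% higher and 6 or 0.0329% lower) by the quasi-likelihood test of edgeR at a Benjamini-Hochberg adjusted p below 0.05. At an unadjusted p below 0.05 there were 1626 genes, 8.92%, these 22 included. Leaving out 1 library gave between 13 and 29 calls, and the lowest counts, 14, 14, 13 and 14, came without WT mouse 1, 2, 3 or 4. The 22 genes were all called by DESeq2 (88 genes) and by the likelihood ratio test of edgeR (84 genes), and 18 of them by limma with voom (23 genes). The untreated A mice alone differed from WT mice in 17 genes (0.0932%) and the sulindac-treated A mice in 11 genes (0.0603%), 2 comparisons that share the same WT libraries. Without sulindac-treated A mouse 1 these counts were 27 and 19, and the first was 9 or 10 without A mouse 1 or 4 or any 1 WT mouse. Between the arms themselves 0 genes passed, with 740 at an unadjusted p below 0.05, 6 called by DESeq2 and 2 by the likelihood ratio test. For the 22 genes the interval of the difference between the arms is given below where it excludes 0 without adjustment, which was the case for 1 of them.

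The strongest difference was in Gm13394, a processed pseudogene of Gapdh, the glycolytic enzyme often used as a loading control. Gm13394 lies at chr2:28933610-28934609 (GRCm38, minus strand) inside the span of Cfap77, and Gapdh at chr6:125161715-125166467 (minus strand). Over the 1000 bases of the pseudogene transcript the annotated Gapdh transcript differs from it at 1 base, A346C, counted from 1 at the A of the Gapdh start codon. Within the aligned stretch, a read by itself must cover this base to tell the 2 loci apart, and what its mate adds was not examined. The 71 bases that a read of 36 bases can reach around it are therefore printed, with the differing base in capitals.
Gapdh: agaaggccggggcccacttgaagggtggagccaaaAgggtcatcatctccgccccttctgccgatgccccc
Gm13394: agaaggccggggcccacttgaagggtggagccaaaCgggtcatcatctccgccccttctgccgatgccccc
Of the 965 words of 36 bases in this stretch of Gapdh, 965 occur in at least 1 other annotated gene. Of the 36 words that cover the differing base, all those of Gapdh occur in at least 1 of 105 other genes, and 2 of those of Gm13394 occur in 1 other gene. The base that the A mice carry there was not tested, since the deposited files hold counts and no reads.

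Gm13394 was at 0.706, 0.797, 0.612 and 0.43 CPM in WT mice, at 127, 138, 114 and 119 CPM in untreated A mice and at 68.4, 98.4, 131 and 112 CPM in sulindac-treated A mice. Its log2 fold change was 7.44 ± 0.24 (SE of the fit, adjusted p = 1.17e-09, edgeR). Gapdh was at 115, 147, 112 and 113 CPM in WT mice, at 31.9, 20, 20.4 and 23.0 CPM in untreated A mice and at 79.5, 19.8, 20.6 and 24.9 CPM in sulindac-treated A mice, a log2 fold change of -2.06 ± 0.33 (adjusted p = 0.0242). All 8 A libraries lay above all WT libraries for the pseudogene and below them for Gapdh, and sulindac-treated A mouse 1 was the closest to WT in both. Without that library Gapdh had an adjusted p of 8.69e-06 and a log2 fold change of -2.44, the largest change of any 1 library left out. The adjusted p of Gapdh was at most 0.117 when others were left out, and its call was kept in 4 of 12 such fits, those without A mouse 1 or without sulindac-treated A mouse 1, 2 or 3.

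The reads of both loci together were 144 ± 13.6 CPM in A mice (SD, n = 8) and 123 ± 16.8 CPM in WT mice (SD, n = 4), a difference of 20.8 CPM with p = 0.0566 by an exact two-sided permutation test over 495 arrangements. The share of these reads that was counted on Gm13394 was 79.9%, 87.3%, 84.8% and 83.8% in untreated A mice, 46.2%, 83.3%, 86.5% and 81.9% in sulindac-treated A mice, and between 0.378% and 0.609% in WT mice. The counts of the 2 genes thus moved in opposite directions while their sum differed by far less than either.

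**Figure D1:**
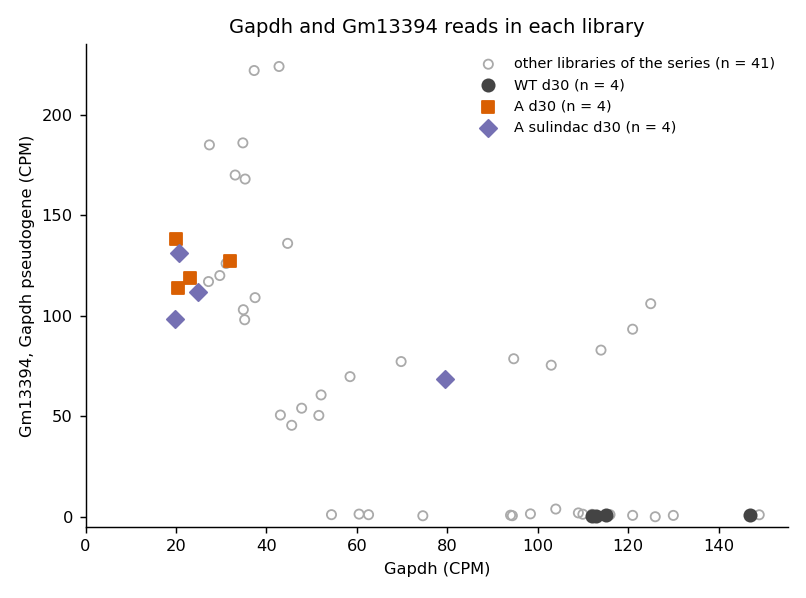
Reads of Gapdh (x axis, CPM) against reads of its pseudogene Gm13394 (y axis, CPM), 1 point per library, for WT, untreated A and sulindac-treated A mice at d30 (4 each) and for the other libraries of the series (open grey circles). The 4 WT libraries lie at 112 to 147 CPM of Gapdh with Gm13394 below 1 CPM, while the A libraries lie at 68.4 to 138 CPM of Gm13394 and sulindac-treated A mouse 1 stands between, at 79.5 CPM of Gapdh.

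By position, 13 of the 22 genes lay on distal chromosome 6, within 13 Mb of Gapdh, where 294 genes were tested and 4.42% were called against 0.121% of all genes. The span was drawn after the calls were seen. Of 278 bins of 10 Mb that cover the tested genes, 11 held a call and 2 held more than 1, which were chromosome 6 from 120 to 130 Mb (8 of 149 genes, 5.37%) and from 130 to 140 Mb (5 of 50 genes, 10%). Of the 66 genes with an unadjusted p below 0.001, 23 lay in the chromosome 6 span and 7 within 10 Mb of Tgfbr1 on chromosome 4. Outside both spans 17785 genes were tested and 8 passed, 7 higher and 1 lower (0.045%). That count was 5 without A mouse 4 or WT mouse 1, 2 or 4, and the count on chromosome 6 was 7 without WT mouse 3.

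**Figure D2:**
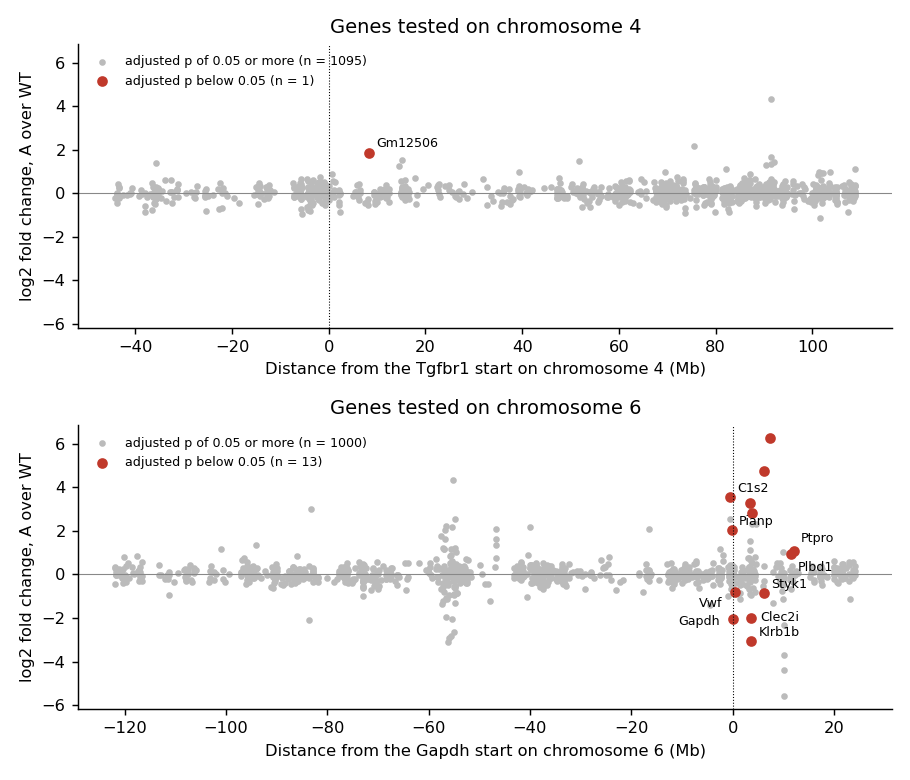
Log2 fold change of A over WT mice (y axis) for every gene tested on chromosome 4 and on chromosome 6, against its distance in Mb from the start of Tgfbr1 or of Gapdh (x axis). Red points are genes with an adjusted p below 0.05, of which chromosome 4 holds 1, Gm12506 at 8.3 Mb from Tgfbr1, and chromosome 6 holds 13, from C1s2 at -0.5 Mb to Ptpro at 12.1 Mb from Gapdh.

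On chromosome 6, 8 genes rose, 4 of them protein-coding and 4 pseudogenes. Pianp, a membrane protein ligand of the receptor PILRα, was at 3.58, 3.19, 2.96 and 2.74 CPM in WT mice, 11.5, 15.8, 13.6 and 19.0 CPM in untreated A mice and 7.53, 14.6, 10.8 and 12.4 CPM in sulindac-treated A mice. Its log2 fold change was 2.04 ± 0.18 (adjusted p = 0.000148, edgeR). C1s2, a serine protease of the complement C1s type, was at 0.163, 0.213, 0.141 and 0.108 CPM in WT mice, at 1.75, 1.86, 2.33 and 1.95 CPM in untreated A mice and at 0.986, 2.42, 2.00 and 2.15 CPM in sulindac-treated A mice, a log2 fold change of 3.55 ± 0.32 (adjusted p = 0.000142). WT libraries held 2 to 4 reads of C1s2, close to the floor, and the ratio of its summed reads, A over WT, each scaled to the total reads of its libraries, was 12.4 (95% counting interval 6.96 to 24.3). Neither gene overlapped between the genotypes, and 35.9% of the 36-base words of C1s2 also occur in other genes, most of them in its neighbour C1s1.

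Plbd1, a phospholipase B-like protein, was between 51.7 and 54.5 CPM in WT mice, at 100, 106, 99.1 and 129 CPM in untreated A mice and at 76.4, 99.0, 106 and 103 CPM in sulindac-treated A mice (log2 fold change 0.92 ± 0.11, adjusted p = 0.00174, edgeR). Ptpro, a receptor-type tyrosine phosphatase, was between 5.65 and 6.41 CPM in WT mice, at 19.1, 13.2, 13.6 and 12.2 CPM in untreated A mice and at 8.15, 15.0, 14.4 and 10.3 CPM in sulindac-treated A mice (1.09 ± 0.18, adjusted p = 0.0398). For Pianp, C1s2, Plbd1 and Ptpro alike, sulindac-treated A mouse 1 was the A library closest to WT, as it was for Gapdh. Ptpro kept its call in 2 of the 12 fits that left out 1 library, those without A mouse 1 or sulindac-treated A mouse 1, with an adjusted p of at most 0.222 in the others, and lost it with limma and voom (0.052).

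Of the genes that fell on chromosome 6, Vwf encodes von Willebrand factor, a clotting protein made by endothelium. It was at 29.2, 29.1, 35.7 and 35.2 CPM in WT mice, 18.3, 16.7, 21.7 and 17.1 CPM in untreated A mice and 21, 20.2, 15.6 and 18.3 CPM in sulindac-treated A mice (log2 fold change -0.81 ± 0.12, adjusted p = 0.0118, edgeR). Of 10 endothelial markers Vwf was the only 1 called, and the median log2 fold change of the 10 was -0.13. Vwf lost its call without WT mouse 3 or WT mouse 4, with an adjusted p of at most 0.0908, and with all 5 groups of d30 in 1 fit, at 0.274. Styk1, a kinase-like membrane protein, was at 116, 139, 141 and 118 CPM in WT mice, at 68.5, 60.3, 72.6 and 71.3 CPM in untreated A mice and at 93.5, 74.9, 59.9 and 76.8 CPM in sulindac-treated A mice (-0.85 ± 0.12, adjusted p = 0.0118). Its call was lost without WT mouse 2 or 3, with an adjusted p of at most 0.0854. In both genes the groups did not overlap.

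The span also holds the natural killer gene complex, a cluster of C-type lectin genes, and both members named here fell outside the naming rule and were chosen after their values were seen. Klrb1b, an inhibitory receptor of natural killer cells, was at 3.31, 1.49, 1.93 and 1.45 CPM in WT mice and between 0.112 and 0.467 CPM in the 8 A mice (log2 fold change -3.07 ± 0.34, adjusted p = 0.00137, edgeR). Clec2i, a lectin of the family that Klrb1 receptors bind, was between 0.956 and 1.85 CPM in WT mice and between 0.161 and 0.58 CPM in A mice (-1.99 ± 0.28, adjusted p = 0.0105). It lost its call without WT mouse 1 or 3, with an adjusted p of at most 0.0776. Of the words of Klrb1b, 29.6% occur in other genes, most in Gm44511, whose annotation overlaps it on the same strand. The groups did not overlap in either gene. In whole tissue fewer cells of a type and less RNA per cell cannot be told apart, which holds for every gene of this report. Whether reads of a gene failed to align or were counted on another locus was not tested either.

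The other 4 called models of the span were pseudogenes that rose, Gm44216, BC064078, Gm45063 and Gm44958. Gm45063 had 1 read over the 4 WT libraries and 17 to 37 in each A library, a ratio of summed reads, scaled the same way, of 120 (95% counting interval 21.3 to 4770). Gm44958 had 4 reads over the 4 WT libraries and 12 to 42 in each A library, a scaled ratio of 31.2 (95% counting interval 12 to 115), and shares 69.3% of its words with Magohb, which it overlaps. BC064078 ran from 0.815 to 1.36 CPM in WT mice and from 2.49 to 16.8 CPM in A mice (log2 fold change 2.82 ± 0.47, adjusted p = 0.0363, edgeR), and kept its call in 4 of the 12 fits without 1 library, those without sulindac-treated A mouse 1, 2 or 4 or A mouse 3. Gm44216, of 157 bases, overlaps Clec2j and was between 0.266 and 0.652 CPM in WT mice and between 2 and 5.67 CPM in A mice (3.29 ± 0.39, adjusted p = 0.00199). Gapdh, Plbd1, Ptpro and Clec2i also overlap another annotated gene, and whether the counting used strand is not given in the sources used here.

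Near Tgfbr1 itself, 1 of 153 genes tested within 10 Mb passed (0.654%), and 37 were at an unadjusted p below 0.05, beside 0.121% and 8.92% of all genes. The 1 call was Gm12506, a long non-coding RNA at 8.3 Mb, which was at 1.96, 1.06, 1.84 and 1.24 CPM in WT mice, at 3.44, 4.79, 8.29 and 4.85 CPM in untreated A mice and at 8.46, 5.62, 3.09 and 6.49 CPM in sulindac-treated A mice (log2 fold change 1.86 ± 0.32, adjusted p = 0.0405, edgeR). Its call was kept in 4 of the 12 fits without 1 library, those without sulindac-treated A mouse 1 or 3 or A mouse 1 or 3, and the count of calls in this span was 2 without sulindac-treated A mouse 1 or 3 or A mouse 3 and 0 without sulindac-treated A mouse 2 or 4, A mouse 2 or 4 or any 1 WT mouse. DESeq2 called 9 genes there and limma with voom 0.

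Among the genes that did not pass near Tgfbr1, Unc13b, a protein of vesicle priming, was at 36.8, 32.1, 33.8 and 34.5 CPM in WT mice and between 45.2 and 65.4 CPM in A mice (log2 fold change 0.57 ± 0.11, adjusted p = 0.0946, edgeR). Tesk1, a kinase that acts on actin regulators, was between 30.54 and 36.6 CPM in WT mice and between 17.6 and 28.4 CPM in A mice (-0.54 ± 0.11, adjusted p = 0.0946). In these 2 genes, which were chosen after their values were seen, the groups did not overlap, a pattern that 168 of the 18232 genes tested showed (0.921%, of which 0.554% with A mice higher and 0.367% with A mice lower). They lie 4.3 and 3.9 Mb before the start of Tgfbr1.

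Of the 8 genes called outside both spans, Gm13394 is described above, and 5 encode proteins that are named here, Esr1, Timp1, Tmem266, Tmem173 and Igsf23. Esr1 encodes oestrogen receptor α (chr10:4611593-5005614, plus strand). It was at 2.12, 2.66, 2.26 and 2.42 CPM in WT mice, 25.4, 16.4, 17.4 and 15.4 CPM in untreated A mice and 11.4, 16.7, 17.2 and 17.7 CPM in sulindac-treated A mice. Its log2 fold change was 2.84 ± 0.20 (adjusted p = 1.71e-05, edgeR), with all A libraries above all WT libraries, and it was called in every one of the 12 fits without 1 library. The CreER fusion contains part of an oestrogen receptor, and reads of the transgene cannot be told apart from reads of Esr1 in gene counts. WT and A mice are both labelled VilCreER+, and the part of the transgene in this difference was not tested.

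Timp1, a secreted inhibitor of matrix metalloproteinases on chromosome X, was at 1.36, 1.28, 1.04 and 1.51 CPM in WT mice, at 4.93, 3.39, 3.75 and 3.07 CPM in untreated A mice and at 6.07, 4.36, 4.64 and 4.77 CPM in sulindac-treated A mice. Its log2 fold change was 1.73 ± 0.21 (adjusted p = 0.00229, edgeR). Tmem266, a membrane protein gene of chromosome 9, was at 3.37, 3.40, 2.64 and 2.80 CPM in WT mice, at 7.02, 6.98, 6.57 and 5.97 CPM in untreated A mice and at 6.18, 8.98, 6.96 and 6.33 CPM in sulindac-treated A mice (1.15 ± 0.15, adjusted p = 0.00399). The groups did not overlap in either gene, and both were called in every fit without 1 library. With all 5 groups of d30 in 1 fit, Timp1 lost its call at an adjusted p of 0.306. Timp1 lies within the gene Syn1, which is annotated on the opposite strand.

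Tmem173 encodes STING, the adaptor that passes on the signal of cytosolic DNA, and was chosen after its values were seen. It was at 6.68, 7.54, 7.2 and 6.67 CPM in WT mice, at 12.2, 14.4, 12 and 13.9 CPM in untreated A mice and at 10.6, 14.2, 10.5 and 9.66 CPM in sulindac-treated A mice (log2 fold change 0.77 ± 0.12, adjusted p = 0.0242, edgeR). Igsf23, of the immunoglobulin superfamily, was at 5.43, 5.84, 4.33 and 6.03 CPM in WT mice, at 41.7, 9.38, 22.2 and 17.1 CPM in untreated A mice and at 22.2, 19.0, 17.7 and 16 CPM in sulindac-treated A mice (1.92 ± 0.33, adjusted p = 0.0432). Both were higher in 8 of 8 A libraries than in any WT library. Tmem173 kept its call in 6 of the 12 fits without 1 library and lost it without any 1 WT mouse or A mouse 2 or 4, where its adjusted p was at most 0.176, and with all 5 groups of d30 in 1 fit, at 0.246. Igsf23 kept its call in 2 of the 12, those without A mouse 1 or 2, reached an adjusted p of 0.248 in the others and lost its call with limma and voom (0.0891). It was far higher in the small intestine of the series (97.4 to 156 CPM in 3 WT mice of no stated day), and A mouse 1, its highest library in the colon at d30, also held the most Fabp6, a small intestinal gene described below. The part of small intestinal RNA in this difference was not tested, and without A mouse 1 the log2 fold change was 1.66.

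The 2 remaining calls have no known function. The predicted gene 5730507C01Rik, on chromosome 12, was between 2.1 and 2.73 CPM in WT mice, between 0.532 and 1.11 CPM in untreated A mice and between 0.966 and 1.21 CPM in sulindac-treated A mice (log2 fold change -1.46 ± 0.20, adjusted p = 0.00827, edgeR), and lost its call only without WT mouse 3. It is the 1 called gene whose arms differed at an unadjusted p below 0.05, with sulindac-treated A mice above untreated A mice by 0.69 on the log2 scale (95% interval 0.12 to 1.25, adjusted p = 0.9998). The pseudogene Gm7291 had 4 reads over the 4 WT libraries and 7 to 18 in each A library, a scaled ratio of 15.1 (95% counting interval 5.73 to 56.4). It kept its call in 3 of the 12 fits without 1 library, those without sulindac-treated A mouse 1, A mouse 3 or WT mouse 3.

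**Figure D3:**
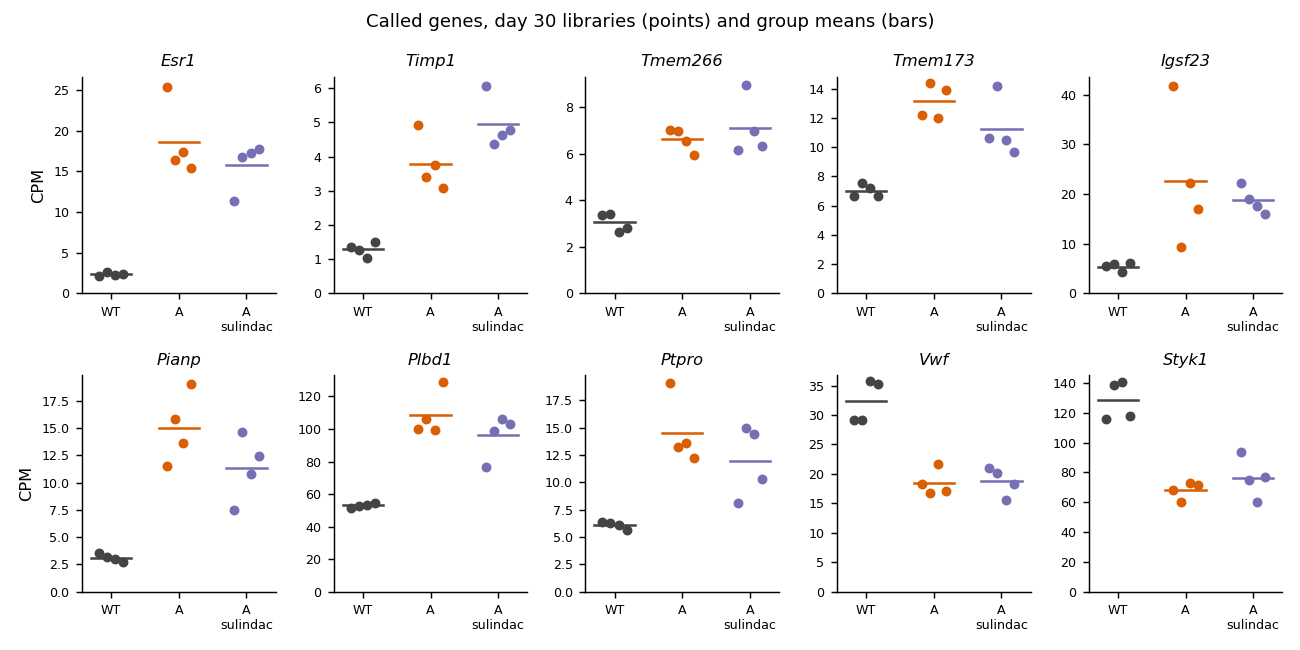
CPM (y axis, from 0) of 10 called genes in the WT, untreated A and sulindac-treated A libraries at d30 (points, 4 per group) with group means (bars). Esr1, Timp1, Tmem266, Tmem173 and Igsf23 lie outside the chromosome 6 span and Pianp, Plbd1, Ptpro, Vwf and Styk1 within it, and in all 10 the 8 A libraries fall on 1 side of the 4 WT libraries.

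The TGFβ pathway itself was read in 3 lists. Tgfbr1, the targeted gene, was at 68.2, 35.2, 46.3 and 58.8 CPM in WT mice, at 33.4, 42.6, 63.5 and 47.5 CPM in untreated A mice and at 52.4, 59.2, 45.6 and 57.5 CPM in sulindac-treated A mice. Its log2 fold change was -0.07 (95% interval -0.45 to 0.30), so the groups overlapped throughout. Counts over the whole gene in whole tissue do not check the recombination, since the other cells keep the gene and a transcript without the floxed exon is still counted. Tgfbr2, the partner receptor, was between 117 and 122 CPM in WT mice and between 92.5 and 153 CPM in A mice (log2 fold change 0.11, 95% interval -0.15 to 0.36). Smad4, the common SMAD, had a log2 fold change of -0.14 (95% interval -0.38 to 0.10) and Smad3 one of -0.04 (95% interval -0.33 to 0.26).

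Of 23 receptors and SMADs, 23 were tested and 0 were called by edgeR's quasi-likelihood test, DESeq2, the likelihood ratio test or limma with voom, beside 0.121% of all genes. Log2 fold changes ran from -0.36 to 0.36 with a median of -0.10, and 22 of the 23 had a 95% interval within -1 and 1. The 1 gene at an unadjusted p below 0.05 was Smad1, a SMAD of the BMP branch, at -0.28 (adjusted p = 0.498). Of 19 ligands and activators, 18 were tested and 0 called by any of these tools, with a median of 0.01. Thbs1, which activates latent TGFβ, ran from 48.3 to 73.9 CPM in WT mice and from 47.5 to 228 CPM in A mice (log2 fold change 0.83, adjusted p = 0.545). Ltbp1, which holds latent TGFβ in the matrix, was at -0.32 on the log2 scale (adjusted p = 0.535).

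Of 34 genes that TGFβ is known to regulate in other settings, 34 were tested and 0 were called by any of the 4 tools, with a median log2 fold change of 0.11 and 30 intervals within -1 and 1. The negative feedback genes Smad7 and Skil had log2 fold changes of 0.08 (95% interval -0.32 to 0.48) and 0.01 (95% interval -0.61 to 0.63). Id1, a target of BMP and TGFβ, was at 0.50 (adjusted p = 0.556), and the pro-apoptotic gene Bmf at -0.56 (adjusted p = 0.385). Fibroblasts and muscle, which keep the receptor, also express genes of these lists, and their share in the counts was not tested.

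**Figure D4:**
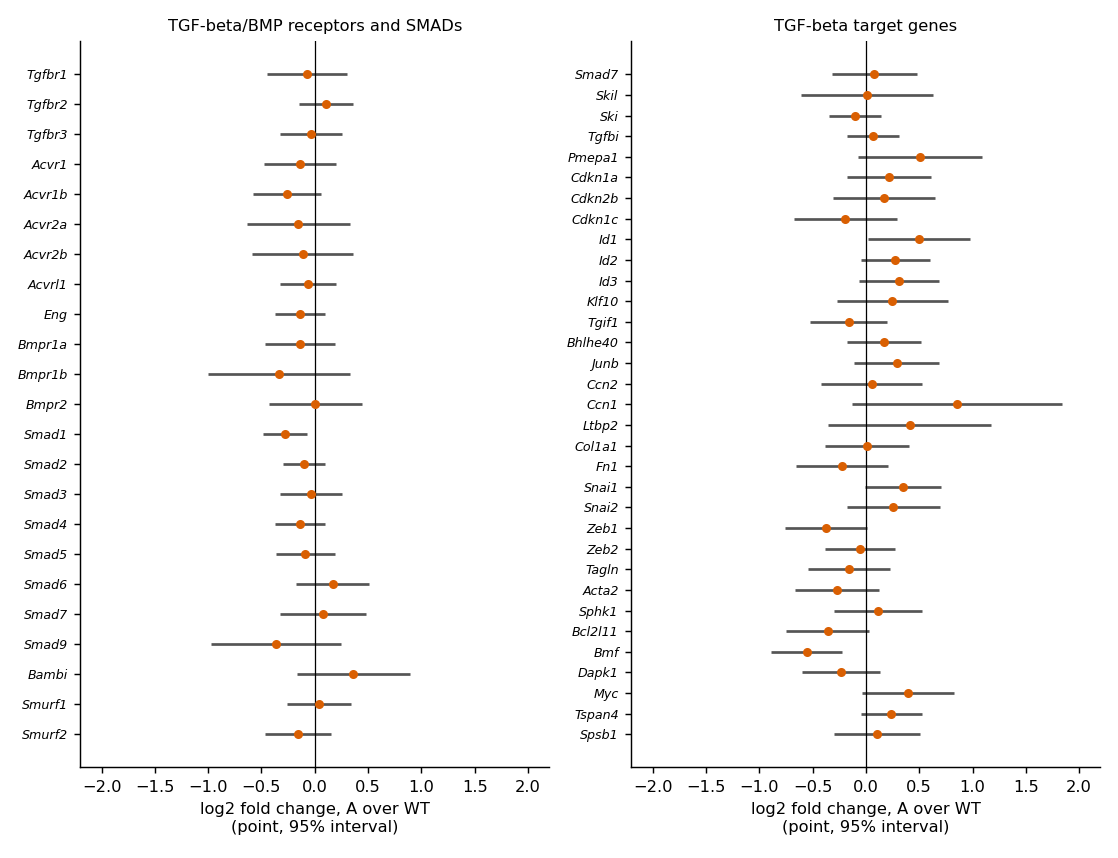
Log2 fold change of A over WT mice (point) with its 95% interval (line) for TGFβ and BMP receptors and SMADs and for TGFβ target genes of the list. None of those shown passed the test after adjustment, and the point of Tgfbr1 lies at -0.07 with an interval from -0.45 to 0.30.

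The foetal genes mark immature intestinal epithelium, and some return in the adult after injury. The list is the one the study shows for mice of this series, so it is no independent evidence of its own direction. Of the 11 genes, 10 were tested in A against WT mice and 0 were called by edgeR's quasi-likelihood test, while Krt7 was called by DESeq2 and by the likelihood ratio test and 0 genes by limma with voom. At an unadjusted p below 0.05, 7 were higher and 0 lower, beside 4.8% of all genes higher and 4.12% lower. The median log2 fold change of the 10 was 0.68, against 0.009 over all genes tested, and it was 0.50 in untreated and 0.79 in sulindac-treated A mice. Their summed level was between 492 and 602 CPM in WT mice, between 652 and 891 CPM in untreated A mice and between 656 and 1050 CPM in sulindac-treated A mice. The groups did not overlap in this sum, although no gene passed on its own. For sulindac-treated A against WT mice at d30, the study reports enrichment of a foetal signature by gene set enrichment analysis. It also reports higher foetal markers by qRT-PCR. Both measures are unlike the calls of single genes given here.

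Krt7, a keratin of simple epithelium, was at 97.9, 101, 70.7 and 89.7 CPM in WT mice, at 209, 125, 143 and 128 CPM in untreated A mice and at 189, 177, 138 and 135 CPM in sulindac-treated A mice (log2 fold change 0.78 ± 0.18, adjusted p = 0.21, edgeR), and was the 1 foetal gene whose groups did not overlap. Ly6a, which encodes SCA1, was at 64.3, 49.2, 44.6 and 51.2 CPM in WT mice, at 94.9, 73.3, 59.8 and 72.7 CPM in untreated A mice and at 109, 124, 88.3 and 56.3 CPM in sulindac-treated A mice (0.67 ± 0.19, adjusted p = 0.409). Ly6e, an interferon-inducible relative, was at 0.68 on the log2 scale (adjusted p = 0.416). Among the annexins, which bind membranes with calcium, Anxa8 was at 1.37 (adjusted p = 0.533), Anxa3 at 0.86 (adjusted p = 0.418) and Anxa1 at 0.60 (adjusted p = 0.555). Sulindac-treated A mouse 1 held the highest Anxa8 (23.0 CPM against 1.27 to 5.94 CPM in the other 11 libraries), Anxa3 (66.3 CPM) and Anxa1 (180 CPM), and without it the log2 fold change of Anxa1 was 0.36.

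The A mice were then set against 5 untreated BA mice of the same day, which carry BrafV600E/+ beside Alk5fl/fl, to place the size of these values. Between BA and untreated A mice 8234 of 18660 genes differed (44.1%), 3746 higher and 4488 lower in BA mice. Foetal genes were among them, and Ly6d was higher in BA mice by a log2 of 3.60 ± 0.26 (adjusted p = 3.01e-09, edgeR), Anxa1 by 3.32 ± 0.26, Anxa3 by 3.30 ± 0.24, Ly6a by 2.90 ± 0.20 and Krt7 by 1.77 ± 0.20. Ly6c1 (2.77 ± 0.24), Anxa8 (2.98 ± 0.50) and Anxa5 (1.93 ± 0.10) were higher too. Anxa6, also of the list, went the other way and was lower in BA mice (-0.80 ± 0.19, adjusted p = 0.0019, edgeR). Ly6e differed by -0.29 (95% interval -0.65 to 0.08), which did not pass. The next values share the untreated A libraries with the comparison above, and the genes were chosen for their values in A mice. That choice by itself favours a move back towards the WT level. Of the genes called in A against WT mice, Igsf23 was higher again in BA than in A mice, by a log2 of 1.93 ± 0.31 (adjusted p = 5.69e-05), and its BA libraries ran from 61.1 to 93.8 CPM. Esr1 (-0.11, 95% interval -0.60 to 0.38) and Gm13394 (0.54, 95% interval -0.04 to 1.13) did not pass. Others differed in the direction opposite to that of A against WT mice, as did Plbd1 at -1.67 ± 0.13, Tmem266 at -1.76 ± 0.26, Ptpro at -1.50 ± 0.18, Gm12506 at -1.36 ± 0.28, Gm44216 at -1.35 ± 0.47 and Pianp at -0.81 ± 0.25. Gapdh (1.74 ± 0.51), Styk1 (0.61 ± 0.13) and 5730507C01Rik (1.97 ± 0.29), lower in A than in WT mice, were higher in BA than in A mice. The adjusted p of these 9 genes was at most 0.0236 (edgeR). These 9 and Igsf23 were the only ones of the 22 called genes that passed here, beside 44.1% of all genes tested. For Gapdh the BA libraries were uneven, at 27.4, 37.3, 121, 34.8 and 125 CPM. The share of the reads of both loci counted on Gm13394 in them was 87.1%, 85.6%, 43.6%, 84.3% and 45.8% in the same order.

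**Figure D5:**
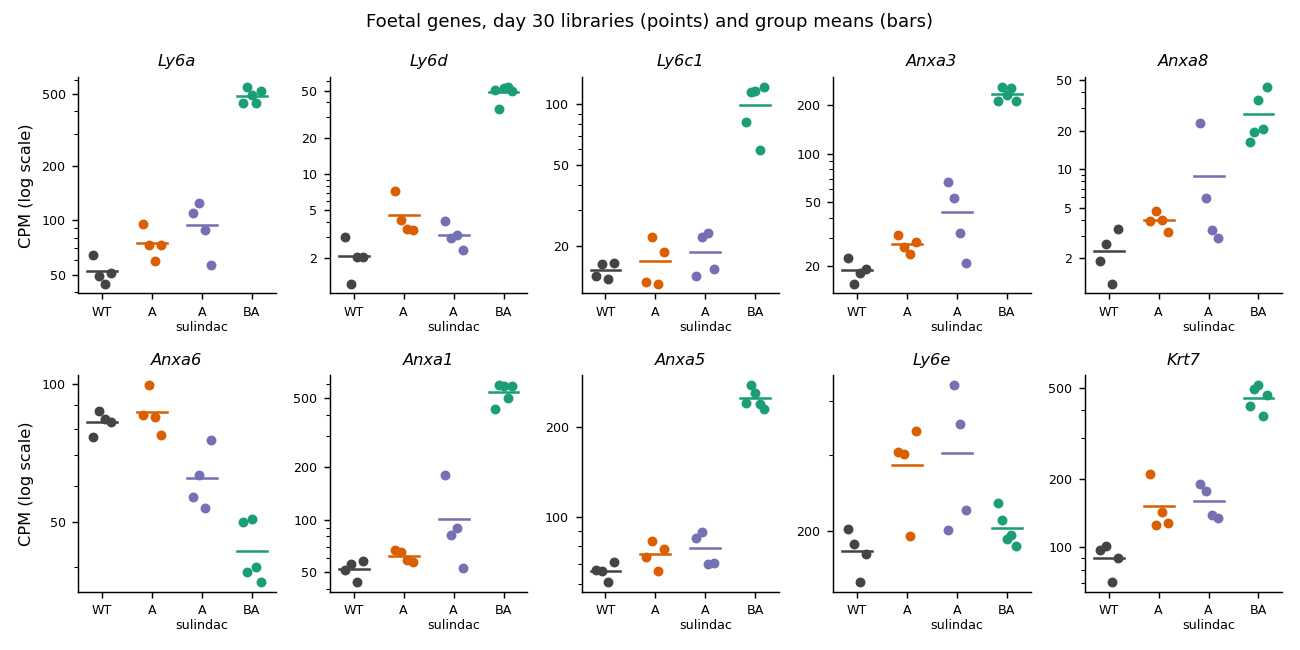
CPM (y axis, log scale) of the 10 foetal genes tested, in the WT, untreated A, sulindac-treated A and BA libraries at d30 (points) with group means (bars). For Krt7 the 8 A libraries lie between 125 and 209 CPM, above the 4 WT libraries at 70.7 to 101 CPM, while for the other genes the A and WT libraries overlap.

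By edgeR's quasi-likelihood test the calls among the listed genes were Vwf, Gapdh and Gm13394, and other tools called further genes that are named below and, for Krt7, above. The 20 proliferation genes tested all had a point estimate above 0, as did 51.5% of all genes tested. Their median log2 fold change was 0.23, but 0 were called by any of the 4 tools and 1, Mcm2, was at an unadjusted p below 0.05 (0.40, adjusted p = 0.556). Crypt stem cell genes (17 tested, median 0.08), Wnt feedback genes (13 tested, median 0.07) and YAP genes (22 tested, median -0.12) held 0 calls by any of the 4 tools. The median of the crypt stem cell genes was -0.04 in untreated and 0.11 in sulindac-treated A mice. For the latter the study reports negative enrichment of an Lgr5+ stem cell signature, by another list and another test. Apoptosis genes (21 tested, median -0.03) held 0 calls by any of the 4 tools and had all 21 intervals within -1 and 1. Of 22 interferon genes 21 had a point estimate above 0 and 7, all higher, were at an unadjusted p below 0.05 (4.8% of all genes tested were higher by that measure), with 0 calls by any of the 4 tools and a median of 0.37. Gbp2, an interferon-induced GTPase, was between 16.6 and 18.3 CPM in WT mice and between 19.6 and 30.37 CPM in A mice without overlap (0.38 ± 0.11, adjusted p = 0.425).

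Among genes of colonic function, 23 transport genes had a median log2 fold change of -0.26 and 0 calls by edgeR's quasi-likelihood test. At an unadjusted p below 0.05, 3 of them were higher and 4 lower, beside 4.8% and 4.12% of all genes. DESeq2 called 1 of them, Scnn1b, higher. The 18 goblet cell and mucin genes had a median of 0.25. In the list of microbial defence, Pla2g2a, a secreted phospholipase that kills bacteria, was at 0.597, 0.319, 0.0941 and 0.108 CPM in WT mice, at 8.98, 1.86, 5.53 and 2.40 CPM in untreated A mice and at 1.76, 18.7, 5.09 and 2.2 CPM in sulindac-treated A mice. The groups did not overlap, the log2 fold change was 4.32 ± 0.84 and the adjusted p of 0.0946 missed the threshold, while DESeq2 and the likelihood ratio test called it. It is annotated as a polymorphic pseudogene, a gene intact in some strains and broken in others, and lies on chromosome 4 beyond 10 Mb from Tgfbr1. Of 7 genes listed for differing between C57BL/6J and other stocks, 3 were tested, with log2 fold changes from -0.23 to -0.08, 0 calls by any of the 4 tools and 0 at an unadjusted p below 0.05.

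Markers of the other cells in the sample were given the same reading. The 10 epithelial markers summed to between 12300 and 14800 CPM in WT mice, 13500 and 20500 CPM in untreated A mice and 12800 and 16300 CPM in sulindac-treated A mice, with a median log2 fold change of 0.14. The 10 smooth muscle genes all had a point estimate below 0 (median -0.32, -0.05 in untreated and -0.62 in sulindac-treated A mice), while 51.5% of all genes were above 0. Of the 10, 2 were at an unadjusted p below 0.05 and 0 were called by any of the 4 tools. Their sum ran from 6230 to 6990 CPM in WT mice, from 4370 to 8690 CPM in untreated A mice and from 3380 to 5990 CPM in sulindac-treated A mice. Fibroblast (14 tested, median -0.01), macrophage (12 tested, median -0.01) and T cell genes (11 tested, median 0.20) held 0 calls by edgeR's quasi-likelihood test, and DESeq2 and the likelihood ratio test called 1 macrophage gene, Cd163, lower. Of 14 neutrophil genes 5 were tested, with a median of 0.92, 3 higher at an unadjusted p below 0.05 and 0 called by any of the 4 tools. Their sum was between 12.5 and 14.4 CPM in WT mice, 14.3 and 19.7 CPM in untreated A mice and 10.9 and 35.9 CPM in sulindac-treated A mice. Of 8 adipocyte genes 6 were tested, with a median of -2.17 (0.63 in untreated and -4.97 in sulindac-treated A mice), 0 called by any of the 4 tools and 0 at an unadjusted p below 0.05. Adipoq, the fat cell hormone adiponectin, was at 17, 18 and 12.2 CPM in WT mouse 4 and A mice 1 and 2 and at most 0.613 CPM in the other 9 libraries. The ileal bile acid binding protein gene Fabp6 was at 482 CPM in A mouse 1 and 88.8 CPM in A mouse 3, and between 0.565 and 5.74 CPM in the other 10 libraries. Mitochondrial transcripts summed to 21500 CPM in A mouse 1 and to at most 44900 CPM in the other untreated A mice. They summed to between 42900 and 47300 CPM in WT mice and between 42100 and 46500 CPM in sulindac-treated A mice. The part of these mixtures in the results above was not tested, and without A mouse 1 and sulindac-treated A mouse 1 together 28 genes were called.

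BA tumours (4 libraries) against WT proximal colon (3 libraries) offered a further reading of the called genes in mice outside the 12, although tumour tissue and Braf V600E come with the Alk5fl/fl genotype there. Of 19188 genes tested 2527 were called (13.2%). Of the 22 genes called at d30, 20 were tested, 9 were called in the same direction, 1 in the opposite direction and 10 were not called. Timp1 was higher in tumours by a log2 of 4.45 ± 0.42, Gm13394 by 5.12 ± 0.77, C1s2 by 5.13 ± 0.85, Pianp by 2.34 ± 0.44, Igsf23 by 2.23 ± 0.37, Tmem173 by 2.05 ± 0.37 and Esr1 by 1.23 ± 0.23, whereas Vwf, lower at d30, was higher in tumours by 1.53 ± 0.26. On chromosome 6, 4 of 12 tested were called in the same direction, and elsewhere 5 of 8. Near Tgfbr1, 19 of 147 genes were called (12.9%), which is close to the share of all genes, and of the 7 genes there with an unadjusted p below 0.001 at d30 Unc13b alone was called, higher by 0.93 ± 0.19. The 19 calls became 31 or 9 without tumour 2 or 4 and 3 or 8 without WT proximal colon 1 or 3.

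Across the other groups of the series, with or without a floxed Alk5 allele, the reads of Gm13394 also differed. Gm13394 was above 10 CPM in 5 of 5 BA mice, 5 of 5 antibiotic-treated BA mice and 3 of 4 BA tumours, and in 0 of 3 samples of WT proximal colon. It was also above 10 CPM in 3 of 3 samples of WT small intestine of no stated day, in 6 of 10 Apcfl/fl and in 3 of 6 WT small intestines at day 4, and in 0 of 5 Apcfl/+ tumours. The small intestines of no stated day and the Apcfl/+ tumours, at opposite ends, are both labelled as inbred C57BL6/J, and the day 4 mice as mixed, like those of d30. In the 6 WT small intestines at day 4, Gm13394 was at 0.781, 0.521, 1.43, 54.0, 126 and 117 CPM and Esr1 at 2.30, 2.08, 2.04, 13.3, 22.0 and 19.9 CPM. In the same 6 mice Pianp was at 2.38, 3.58, 2.96, 13.7, 27.1 and 20.6 CPM and C1s2 at 0.123, 0.139, 0.0463, 1.06, 1.5 and 1.25 CPM, so the same 3 WT mice were high in all 4 genes. These 4 were not picked by a rule set beforehand, and the other called genes are not given for these mice. The Apcfl/+ tumours did not follow this pattern, with Esr1 between 6.48 and 51.5 CPM at 0.49 to 1.90 CPM of Gm13394. In the d30 colon all A mice were above 10 CPM of Gm13394 and no WT mouse was, so that whatever else goes with these reads cannot be told apart from the loss of Alk5 there.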

How the data were processed

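RNA-seq libraries of whole proximal colon from A and WT mice at d30 were analysed. The authors sequenced paired reads of 36 bases, checked and trimmed them (FastQC 0.11.8, Trim Galore 0.6.4), aligned them to GRCm38 with HISAT2 2.1.0, counted them on genes with featureCounts 1.6.4 and deposited the raw counts, without normalisation, as 1 table of 55421 genes, and 55240 of its identifiers matched a GENCODE M21 symbol. Settings for strand and for reads that fit several places are not given in the sources used here, and 0 columns were left unused.

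The 12 libraries were fitted together with 3 group means. Genes were kept by filterByExpr, scaled by TMM and tested with the two-sided quasi-likelihood test of edgeR 4.0.16, and p-values were adjusted over all genes tested by the Benjamini-Hochberg method (threshold 0.05). The main contrast was the mean of both A arms minus WT. CPM are counts per 1000000 reads on genes. Intervals are 95% intervals of the fit, a floor is 3 counts per library, and ratios of summed reads, scaled to the summed library totals, have exact Clopper-Pearson intervals that cover counting error only. BA against A mice were fitted with all 5 groups of d30, and BA tumours with WT proximal colon alone. Sequences and coordinates are of GRCm38 from GENCODE M21, and shared sequence is the percent of a gene's 36-base exon words that occur in other genes. R 4.3.3, limma 3.58.1, DESeq2 1.42.0, Python 3.11.15, pandas 2.3.3, scipy 1.17.1 and matplotlib 3.10.9 were used, and the calling was tested on simulated data.

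The members and the gene lists were chosen with earlier results of these data known. Any gene of the 43 lists could be named. Besides these, the rule named the 10 higher and 10 lower called genes of largest change with a mean log2 CPM of at least 1, and again of at least 5, without overlap between A and WT libraries, every call within 10 Mb of Tgfbr1, and called genes of largest change between the arms. C1s2, Klrb1b, Clec2i, Gm45063, Gm44958, 5730507C01Rik, Tmem173, Gm7291, Unc13b, Tesk1 and Osmr were chosen after their values were seen. The list symbols Ctgf and Cyr61 were matched as Ccn2 and Ccn1. No 2 libraries held identical counts. 1 gene of the TGFβ target list entered its counts and median and is not otherwise reported or plotted here.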

Additional observations from a re-analysis of the deposited data

Results flagged for a closer look

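In 4 of 78 sets, of 26 genes in 3 groups of 4 libraries, 1 library stood apart from the other 3 by Dixon's ratio (critical value 0.829), and chance alone flags about 1 in 20 such sets. Gapdh was at 147 CPM in WT mouse 2, above the other WT libraries, and at 79.5 CPM in sulindac-treated A mouse 1, above the other sulindac-treated libraries. Esr1 was at 11.4 CPM in sulindac-treated A mouse 1, below the other 3 of its group. Unc13b was at 65.4 CPM in A mouse 3, above the other untreated A libraries. In samples that none of the tests used, Gm13394 was above 10 CPM in 3 of the WT small intestines at day 4 and in 6 of the Apcfl/fl small intestines at day 4, although their labels name no Alk5 allele.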

How the results depend on the processing

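With RLE scaling the calls of the main comparison were 22 and included the same 22 genes. The DESeq2 Wald test called 88 genes in A against WT mice, 79 in the untreated arm, 91 in the sulindac arm, 6 between the arms, 9 near Tgfbr1, 26 in the chromosome 6 span and 53 outside both spans. The likelihood ratio test of edgeR called 84, 74, 83, 2, 7, 27 and 50 in the same order. Without the filter on low counts 37, 44 and 31 genes were called in A, untreated A and sulindac-treated A against WT mice, 2 near Tgfbr1 and 16 outside both spans. With all 5 groups of d30 in 1 fit these counts were 38, 28, 29, 6 and 16. With limma and voom 0 genes were called near Tgfbr1, with the 8 A libraries as 1 group 2, in a span of 5 Mb 0, and in a span of 5 Mb about Gapdh 8. With the replicate number as a block 15 genes were called in A against WT mice, 14 of them among the 22 (lost were Vwf and Styk1 at 0.0848, Tmem173 and Igsf23 at 0.0915, Ptpro and Gm12506 at 0.15, BC064078 and Gm7291), with 0 near Tgfbr1, and 8 near Tgfbr1 in BA tumours. Libraries with the same number correlated from -0.429 to 0.213 in their deviations from the group means, 2 of 12 pairs over 0.1 and 1 of the 12 libraries best with its own number, so the numbers were not taken to pair mice. Leaving out each library in turn gave 13 to 29 calls in A, 9 to 27 in untreated A and 9 to 19 in sulindac-treated A against WT mice, 0 to 2 near Tgfbr1, 7 to 19 in the chromosome 6 span, 5 to 9 outside both spans, and 3 to 31 near Tgfbr1 in BA tumours against 19 with all libraries. Without A mouse 1 and sulindac-treated A mouse 1, a choice made after the data were seen, 22 genes were called in the sulindac arm, 1 between the arms and 2 near Tgfbr1. Of the single genes under all settings, 470 values kept direction and side of the threshold, 62 lost and 14 gained the call, and 0 changed sign. Gm13394, Esr1, C1s2, Pianp, Klrb1b, Plbd1, Tmem266, Gm44216, Gm44958 and Gm45063 were called in all 12 fits without 1 library and all 8 other settings. The foetal genes at an unadjusted p below 0.05 numbered 5 to 8. Fits with the Gm13394 class or with sex as a covariate were not run, because all 8 A and no WT libraries were above 10 CPM of Gm13394 and all 12 libraries carried reads of the Y chromosome. With 4 libraries per arm and between 14816807 and 21249146 reads, the interval of the log2 fold change lay within -1 and 1 for 84.2% of the genes tested.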

Other observations

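Osmr, the receptor of oncostatin M, lay just outside the threshold and in no list. It was at 10.7, 9.46, 11.2 and 12.8 CPM in WT mice, at 14.8, 23.5, 27.9 and 17.6 CPM in untreated A mice and at 17.2, 20.7, 18.7 and 16.3 CPM in sulindac-treated A mice, without overlap (log2 fold change 0.80 ± 0.15, adjusted p = 0.0901, edgeR). DESeq2 and the likelihood ratio test called it, and leaving out 1 library gave an adjusted p between 0.0382, without A mouse 1, and 0.38. F3, which encodes tissue factor, was at 17.8, 19.3, 18.5 and 21 CPM in WT mice and between 23.9 and 43.5 CPM in A mice, also without overlap (0.65 ± 0.16, adjusted p = 0.342). Il1rn, the interleukin 1 receptor antagonist, was at 1.85 ± 0.62 on the log2 scale (adjusted p = 0.474), with 82.2 CPM in sulindac-treated A mouse 1 and overlapping groups.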
